A study of Mus musculus with 4 samples.

Results

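The 9 CC chemokine genes Ccl2, Ccl3, Ccl4, Ccl5, Ccl6, Ccl7, Ccl8, Ccl9 and Ccl12 were followed through the leukocytes of the allergen-challenged mouse lung. Their rows were taken by symbol from the matrix of each RNA library, and all 9 of 9 were present among 32285 genes. The cells came from Plaur–/– mice, which lack the gene of the urokinase receptor, and from C57B6/J (WT) mice. Animals of both genotypes received LPS/OVA on days 0 and 7 and breathed aerosolized OVA on day 14, so every cell described here is from a challenged lung. The design names 8 mice per genotype, but each genotype is represented by a single RNA library and its antibody library. How many mice went into a library, their age and the deleted part of Plaur are not given in the sources used here. No difference between genotypes below therefore has a replicate check, none was tested, and each interval is a 95% interval for counting error only. The labels call the sorted CD45.2+ cells circulating and also a lysate of total lung, so it is not clear which leukocytes the gate admitted.

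CC chemokines are small secreted proteins that draw leukocytes along a gradient through G protein-coupled receptors. Ccl2, Ccl7 and Ccl12 encode monocyte chemoattractant proteins that act on CCR2, the receptor by which classical monocytes leave the marrow and enter inflamed tissue, and Ccl8 encodes a relative that in the mouse acts on CCR8. Ccl3, Ccl4 and Ccl5 encode inflammatory chemokines made by macrophages and effector lymphocytes, and Ccl3 and Ccl5 act on CCR1. Ccl6 and Ccl9 encode CCR1 ligands found in rodents and made mainly by myeloid cells.

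The Plaur KO-labelled library kept 9584 of 10102 barcodes with a median of 2777.5 gene UMIs (unique molecular identifiers, each standing for 1 captured transcript), and the WT-labelled library kept 8684 of 9024 barcodes with a median of 3209. Ptprc, which encodes CD45, had a UMI in 95.8% of KO-labelled and 96.3% of WT-labelled cells. Plaur RNA was present in both libraries, at 455 CPM (UMIs of a gene after scaling the summed UMIs of the cells to 1000000) in KO-labelled and 527 CPM in WT-labelled cells. It was lower in KO-labelled interstitial macrophages (95.8 and 444 CPM), alveolar macrophages (92.5 and 317 CPM) and neutrophils (1256 and 2069 CPM), but higher in KO-labelled T cell cluster 10 (579 and 20.4 CPM), T cell cluster 21 (391 and 55.2 CPM), NK cells (127 and 5.06 CPM) and gamma-delta T cells (208 and 8.22 CPM). A 3′ tag can lie outside a deleted part, so this level does not check the labels, and the libraries are named by them. Clustering without any Ccl gene gave 33 clusters. Cluster 20, with 684 KO-labelled and 191 WT-labelled cells, carried markers of classical monocytes together with those of neutrophils and is kept apart as the mixed monocyte-neutrophil cluster. Its cells had median totals of 10528.5 and 9239 UMIs, against 5363 and 4869 in the classical monocytes of cluster 16, and neutrophil markers in cluster 20 summed to 52247 and 41890 CPM, against 609 and 265 CPM in cluster 16. Whether its barcodes hold more than 1 cell was not tested. Gene UMIs came to 47442215 in the KO-labelled and 42913843 in the WT-labelled library, and the libraries shared 16 barcodes.

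Over whole libraries the members differed little, between 1263 KO-labelled and 1453 WT-labelled CPM for Ccl6, the most abundant, and 78.3 and 66.4 CPM for Ccl8, the least. The ratio of the KO-labelled to the WT-labelled level, on the log2 scale throughout, ran from -0.20 for Ccl6 to 0.35 for Ccl2. The cells that carried them differed far more than the libraries. Ccl2, Ccl7, Ccl8 and Ccl12 were mainly transcripts of the class named interstitial macrophages, after the tissue macrophages outside the air spaces. That name rests on marker genes, and where the cells lay in the lung was not measured. Ccl6 was shared by alveolar macrophages, neutrophils and a subset of interstitial macrophages, and Ccl9 by macrophages, monocytes and cDC2 (conventional dendritic cells of type 2) with little in neutrophils. Ccl5 was carried by NK cells and effector T cells. Ccl3 and Ccl4 were spread in unequal parts over neutrophils, macrophages and cytotoxic lymphocytes. Ccl4 was also found in dendritic cells and was low in alveolar macrophages. B cells, set beside the other classes as a level that free RNA can reach, had 1.83 to 23.4 CPM of the 9 members in the KO-labelled and 0.484 to 14.0 CPM in the WT-labelled library.

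**Figure D1:**
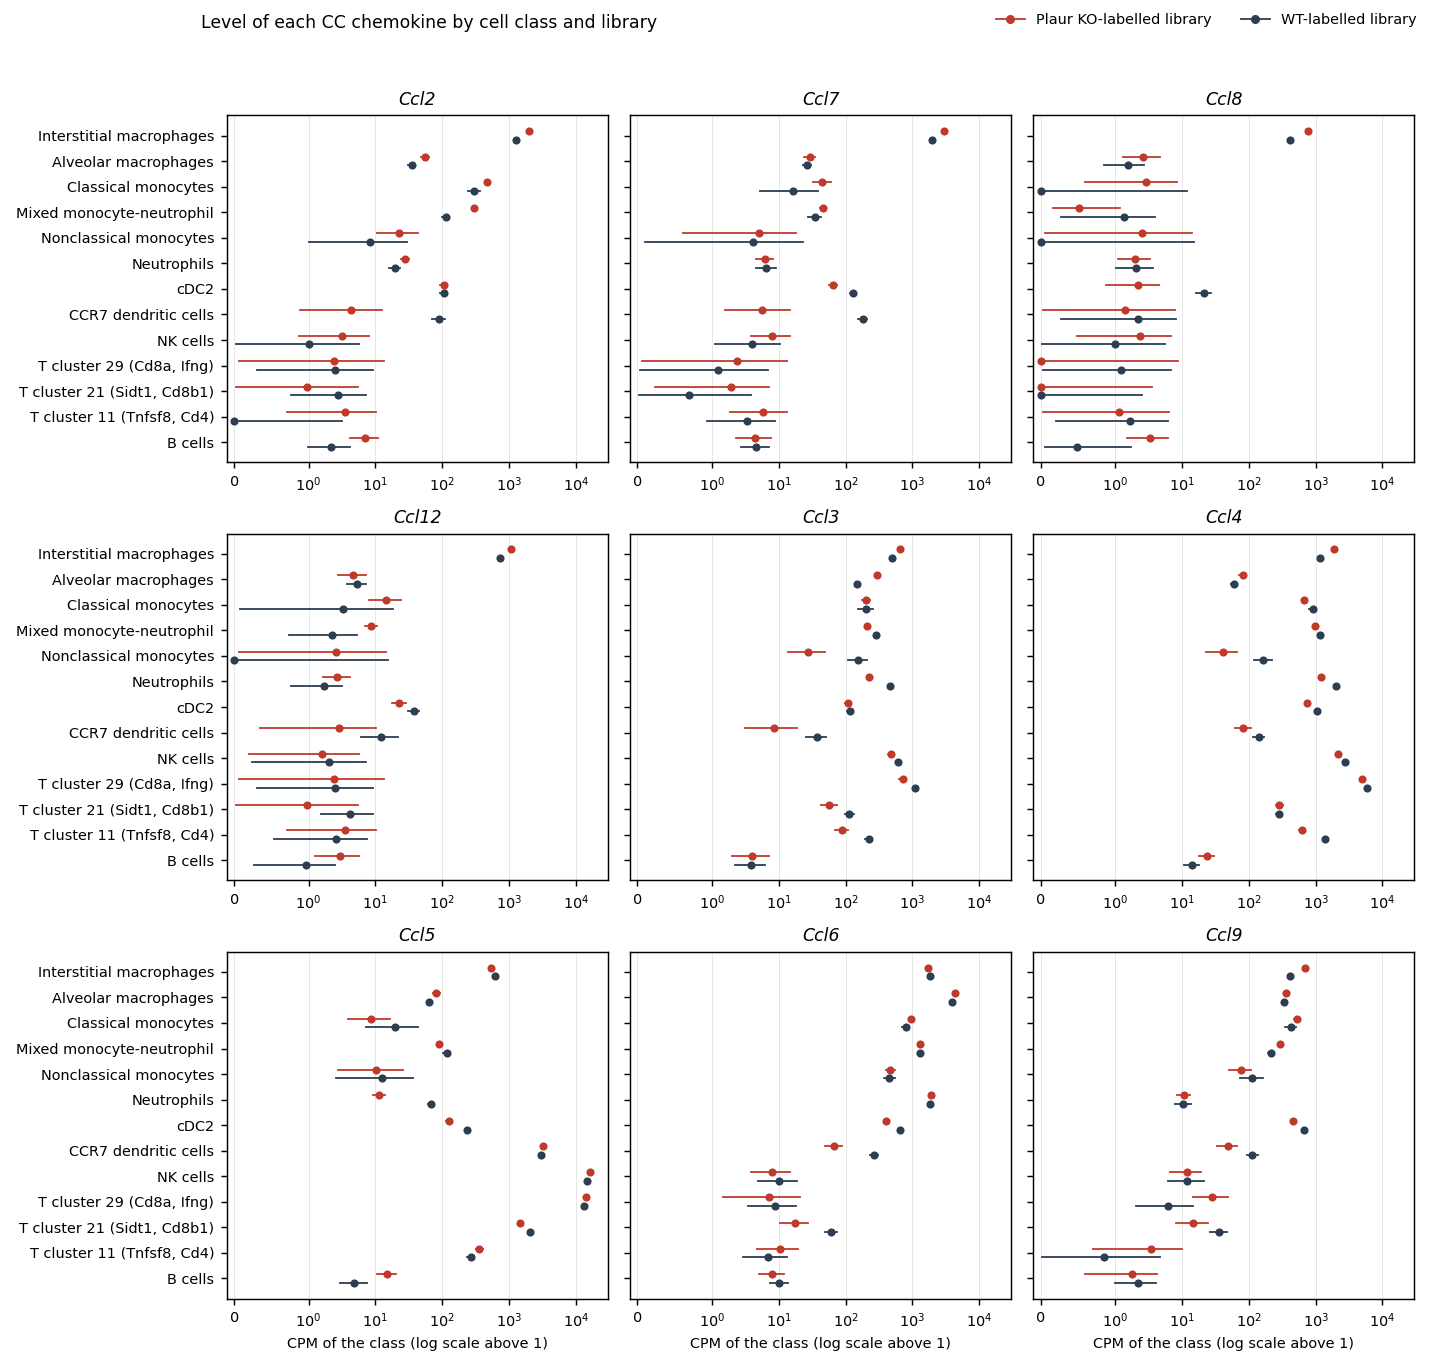
Level of each member in 13 cell classes, as CPM of the class on a scale that is linear up to 1 and logarithmic above it; red points are the Plaur KO-labelled and dark points the WT-labelled library, and lines are 95% Poisson intervals for counting error. Ccl2, Ccl7, Ccl8 and Ccl12 peak in interstitial macrophages, Ccl5 in NK cells and T cluster 29, and Ccl9 is low in neutrophils, where Ccl6 is high.

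Interstitial macrophages held 92.6% of KO-labelled and 92.1% of WT-labelled Ccl7 UMIs, 97.9% and 96.1% of Ccl8 UMIs, and 95.1% and 95.9% of Ccl12 UMIs. For Ccl2 the shares were 66.1% in the KO-labelled and 85.2% in the WT-labelled library, while the mixed cluster held 21.8% of KO-labelled and 2.63% of WT-labelled Ccl2 UMIs. Within interstitial macrophages Ccl7 was at 3013 CPM in the KO-labelled and 1955 CPM in the WT-labelled library (log2 ratio 0.62, counting interval 0.59 to 0.66). Ccl2 was at 1987 and 1281 CPM (log2 ratio 0.63, counting interval 0.59 to 0.68), Ccl12 at 1067 and 733 CPM (log2 ratio 0.54, counting interval 0.48 to 0.60) and Ccl8 at 780 and 414 CPM (log2 ratio 0.91, counting interval 0.84 to 0.99). All 4 were thus higher in the KO-labelled class as a whole. Ccl12 UMIs were seen in 48.1% of KO-labelled and 36.6% of WT-labelled interstitial macrophages at median depths of 5798.5 and 7653 UMIs, against 0.622% and 0.268% of B cells at 2048.5 and 2335.5 UMIs. With every cell thinned to 1000 UMIs, which left out 14 KO-labelled and 7 WT-labelled macrophages, the shares were 32.6% and 21.8%, against 0.181% and 0.0675% of B cells.

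The class consisted of 2 clusters in unequal parts. Cluster 6, led apart from the chemokines by Pf4 and carrying the complement genes C1qa, C1qb and C1qc, held 383 cells, or 55.8% of KO-labelled interstitial macrophages (interval 52.0% to 59.6%), and 252 cells, or 32.2%, of the WT-labelled ones (interval 28.96% to 35.6%). Cluster 9, led by Gpnmb, a glycoprotein of lipid-laden macrophages, and Trem2, a lipid-sensing receptor, held the other 303 KO-labelled and 530 WT-labelled cells. Gpnmb and Trem2 are themselves among the markers by which the class was named. Ccl12 was at 2223 KO-labelled and 2818 WT-labelled CPM in cluster 6, and at 67.6 and 79.5 CPM in cluster 9. That is 32.9-fold more in cluster 6 in the KO-labelled (interval 28.0 to 38.8) and 35.4-fold more in the WT-labelled library (interval 31.9 to 39.5). Ccl8 behaved the same, at 1631 and 1592 CPM in cluster 6 against 43.5 and 45.0 CPM in cluster 9. Ccl7 and Ccl2 were present in both states, with Ccl7 at 4193 and 3859 CPM in cluster 6 and at 1991 and 1359 CPM in cluster 9, and Ccl2 at 2431 and 1894 CPM in cluster 6 and at 1603 and 1089 CPM in cluster 9.

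Within each state the difference between libraries took another form than in the class. Ccl12 was lower in the KO-labelled library in cluster 6 (log2 ratio -0.34, counting interval -0.40 to -0.28), and in cluster 9 its log2 ratio of -0.23 had an interval that included 0 (-0.51 to 0.04). Ccl8 had log2 ratios of 0.03 in cluster 6 (interval -0.04 to 0.11) and -0.05 in cluster 9 (interval -0.40 to 0.30). Ccl7 and Ccl2 were higher in the KO-labelled library in both states, with log2 ratios of 0.12 and 0.36 in cluster 6 and of 0.55 and 0.56 in cluster 9. With the 2 clusters weighted alike, the log2 ratio of the class was -0.34 for Ccl12, 0.033 for Ccl8, 0.25 for Ccl7 and 0.44 for Ccl2. The interstitial macrophage markers summed to 23584 and 31774 CPM in cluster 6 but to 5802 KO-labelled and 15324 WT-labelled CPM in cluster 9, and the part of this difference in the ratios was not tested.

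**Figure D2:**
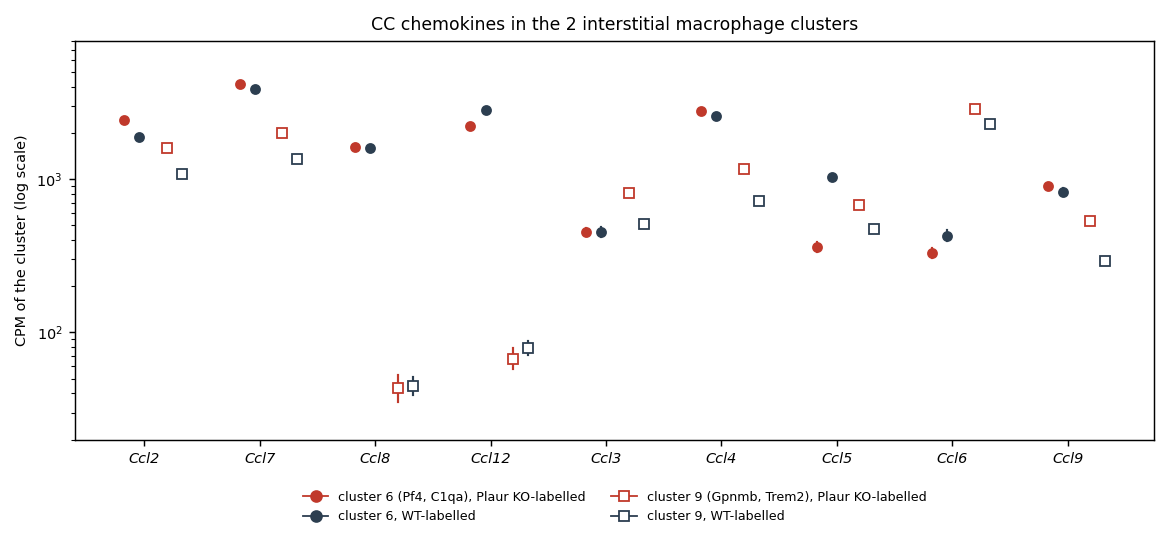
CPM on a log axis of the 9 members in interstitial macrophage clusters 6 (filled circles) and 9 (open squares), Plaur KO-labelled in red and WT-labelled in dark; bars are 95% Poisson intervals, many smaller than the symbol. Ccl8 and Ccl12 stand apart by cluster far more than by library, while Ccl6 is the member higher in cluster 9 by the largest fold.

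Among single cells of cluster 6 the members tended to be seen together. After thinning, Ccl7 was found in 88.1% of KO-labelled and 86.6% of WT-labelled cells with a Ccl2 UMI, against 36.0% and 37.4% of cells without one. Ccl12 was found in 68.1% and 72.9% of cells with a Ccl8 UMI, against 42.9% and 48.0% of cells without. Cells of a cluster share a library, so these shares describe the 2 libraries and carry no test. All 4 genes lie side by side on mouse chromosome 11 of GRCm38.p6 (RefSeq), in the order Ccl2, Ccl7, Ccl12, Ccl8 within 81223 bp (chr11:82035577-82116799). The other 5 members, Ccl5, Ccl9, Ccl6, Ccl3 and Ccl4, lie in 138906 bp at chr11:83525778-83664683.

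RefSeq promoter sequences were at hand for 5 of the 9 members, Ccl3, Ccl6, Ccl8, Ccl9 and Ccl12. The 250 bases before the start of Ccl12 (chr11:82101595-82101844, plus strand) and of Ccl8 (chr11:82114935-82115184, plus strand) are shown because both transcripts lay almost wholly in interstitial macrophages and were far higher in cluster 6. Capitals mark TATAAA, the TATA box, and GAGGAA, a core bound by the myeloid factor PU.1, or its reverse complement TTCCTC.
Ccl12: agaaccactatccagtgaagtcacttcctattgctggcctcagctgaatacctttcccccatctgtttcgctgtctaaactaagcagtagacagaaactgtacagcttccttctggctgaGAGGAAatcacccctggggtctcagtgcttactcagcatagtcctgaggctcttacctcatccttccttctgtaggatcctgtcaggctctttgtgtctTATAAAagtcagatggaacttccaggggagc
Ccl8: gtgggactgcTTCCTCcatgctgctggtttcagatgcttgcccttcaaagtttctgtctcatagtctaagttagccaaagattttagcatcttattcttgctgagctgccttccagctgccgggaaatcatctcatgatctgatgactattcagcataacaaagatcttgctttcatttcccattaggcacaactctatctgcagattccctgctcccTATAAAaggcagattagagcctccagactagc
Both sequences hold TATAAA close to the start, at bases 31 to 26 before it in Ccl12 and 32 to 27 in Ccl8. The motif was found on either strand in the same 250-base window of 12.4% of 32817 RefSeq promoters. Ccl12 holds GAGGAA at 130 to 125 and Ccl8 its reverse complement at 240 to 235, in a window type where 23.3% of promoters hold it. Neither window holds the letters searched for an NF-kB site (GGG and TTTCC with any 2 bases between), AP-1 (TGANTCA), C/EBP (TTGCNNAA) or an interferon-stimulated response element (GAAA and GAAA with any 2 bases between), each on both strands. These are letter matches and describe the window only.

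Outside interstitial macrophages Ccl2 and Ccl7 were at lower levels and Ccl8 and Ccl12 were scarce. Classical monocytes had Ccl2 at 469 CPM in the KO-labelled and 301 CPM in the WT-labelled library (log2 ratio 0.64, counting interval 0.32 to 0.98), from 177 and 61 cells, and 5 cells held 56.5% of the WT-labelled UMIs. Thinning turned it to -0.44, and leaving out the 5 highest cells per library gave 1.26. Their Ccl7 stood at 45.0 and 16.3 CPM, on 47 and 5 UMIs. In the mixed cluster Ccl2 was at 294 KO-labelled and 112 WT-labelled CPM (log2 ratio 1.39, counting interval 1.21 to 1.59). Nonclassical monocytes, the patrolling cells of the vessel wall, had 9 and 2 Ccl2 UMIs in all. In cDC2 Ccl2 was at 105 and 104 CPM and Ccl7 at 65.2 and 131 CPM (log2 ratio -1.003, counting interval -1.26 to -0.75). Without the 5 highest cells of each library the Ccl7 ratio in cDC2 was -0.77. CCR7 dendritic cells, a migratory state, showed 4 KO-labelled Ccl7 UMIs against 161 WT-labelled ones, but 84.5% of the WT-labelled UMIs lay in 5 cells. Neutrophils had Ccl7 at 6.30 and 6.51 CPM, next to 4.39 and 4.60 CPM in B cells, so neutrophil Ccl7 was read as background. A small epithelial cluster, cluster 5 with 36 KO-labelled and 22 WT-labelled cells, had Ccl2 at 342 and 1010 CPM (log2 ratio -1.56, counting interval -1.88 to -1.25) and Ccl7 at 149 and 375 CPM. There 99.3% of the KO-labelled and 98.5% of the WT-labelled Ccl2 UMIs lay in 5 cells, and the cluster was too small to enter the classes.

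Ccl3 and Ccl4, the macrophage inflammatory proteins 1-alpha and 1-beta, were spread over many sources. Neutrophils held 17.7% of KO-labelled and 24.3% of WT-labelled Ccl3 UMIs and 23.8% and 29.8% of Ccl4 UMIs, macrophages 42.2% and 42.9% of Ccl3 and 22.6% and 21.6% of Ccl4, and lymphocytes 11.8% and 20.5% of Ccl3 and 16.5% and 27.4% of Ccl4. The mixed cluster held 21.1% and 6.34% of Ccl3 and 25.0% and 7.03% of Ccl4. RefSeq models of the 2 genes overlap by 755 bp and the counting is not stated to use strand in the sources used here, so reads of the overlap may be assigned to either.

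In neutrophils both were lower in the KO-labelled library. Ccl3 was at 226 CPM in KO-labelled (interval 215 to 237) and 456 CPM in WT-labelled neutrophils (interval 438 to 474), a log2 ratio of -1.01 (interval -1.11 to -0.92). Ccl4 was at 1219 KO-labelled CPM (interval 1194 to 1245) and 2020 WT-labelled CPM (interval 1982 to 2058), a log2 ratio of -0.73 (interval -0.77 to -0.69). The share of neutrophils with a Ccl3 UMI was 18.6% of 3311 KO-labelled and 29.8% of 2272 WT-labelled cells at median depths of 1729 and 1744.5 UMIs, and 12.03% and 20.7% after thinning, against 0.799% and 0.937% of B cells unthinned and 0.454% and 0.675% thinned. Thinning left out 177 KO-labelled and 106 WT-labelled neutrophils. Each of the 6 neutrophil clusters showed the same direction, with log2 ratios from -1.25 to -0.28 for Ccl3 and from -0.66 to -0.07 for Ccl4. Being lower in all 6 clusters held for 9.4% of the 2915 genes with at least 20 UMIs in each. The intervals included 0 in clusters 0 and 3 for Ccl3 and in cluster 3 for Ccl4.

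Levels among neutrophil clusters differed more than between libraries. Cluster 8, led by F3 (tissue factor) and Acod1 (the itaconate enzyme of activated myeloid cells), had Ccl4 at 3918 KO-labelled and 4657 WT-labelled CPM. Cluster 0, led by Retnlg, a gene of circulating mature neutrophils, had 174 and 275 CPM, 22.5-fold less in the KO-labelled (interval 20.03 to 25.4) and 16.9-fold less in the WT-labelled library (interval 14.0 to 20.7). Ccl3 followed the same order at the ends, with 475 and 841 CPM in cluster 8 and 65.1 and 86.4 CPM in cluster 0. Ccl6 ran the other way, at 1282 and 1567 CPM in cluster 8 and 2650 and 2643 CPM in cluster 0. Cluster 0 made up 26.004% of KO-labelled and 9.11% of WT-labelled neutrophils and cluster 8 made up 11.3% and 19.0%, so the make-up of the class differed along with the level within clusters. With the 6 clusters weighted alike the log2 ratio was -0.73 for Ccl3 and -0.33 for Ccl4. TMM scaling moved all neutrophil ratios up by 0.11, to -0.90 for Ccl3.

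**Figure D3:**
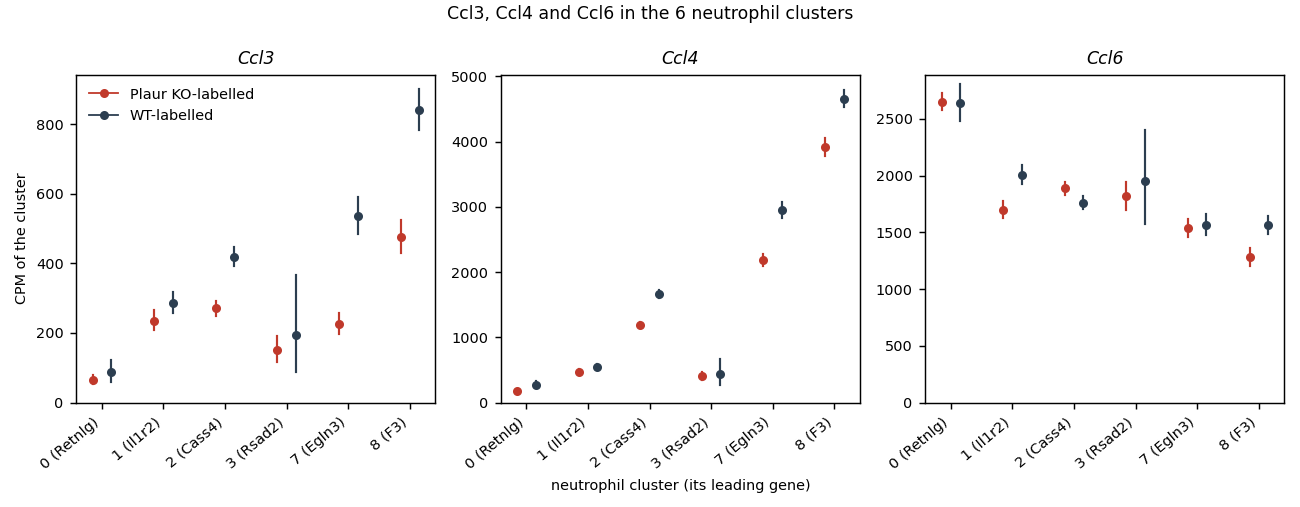
CPM of Ccl3, Ccl4 and Ccl6 in the 6 neutrophil clusters, Plaur KO-labelled in red left of WT-labelled in dark, with 95% Poisson intervals; the axis of each panel starts at 0 and the clusters carry their leading gene. Ccl3 and Ccl4 are highest in cluster 8 and lowest in cluster 0, and Ccl6 is highest in cluster 0.

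Both macrophage classes as a whole showed the opposite direction, though not every macrophage cluster did. Interstitial macrophages had Ccl4 at 1915 CPM in the KO-labelled and 1172 CPM in the WT-labelled library (log2 ratio 0.71, counting interval 0.66 to 0.75) and Ccl3 at 648 and 496 CPM (log2 ratio 0.38, counting interval 0.31 to 0.46), with neutrophil markers at 1632 and 2370 CPM. By state this lay in cluster 9, with log2 ratios of 0.68 for both genes, while cluster 6 had 0.10 for Ccl4 (interval 0.04 to 0.16) and -0.01 for Ccl3 (interval -0.15 to 0.14). Alveolar macrophages had little Ccl4, at 80.9 and 60.1 CPM (log2 ratio 0.43, counting interval 0.22 to 0.63, and -0.17 with clusters weighted alike), but more Ccl3, at 291 CPM in the KO-labelled (interval 274 to 308) and 147 CPM in the WT-labelled library (interval 139 to 156), a log2 ratio of 0.98 (interval 0.86 to 1.10). Their neutrophil markers summed to 1043 KO-labelled and 397 WT-labelled CPM over 10 genes, with 0 and 1 of them undetected. The Ccl3 ratio stayed at 0.96 with thinned cells and was 0.48 with the alveolar clusters weighted alike. That weighting gives cluster 25, a small alveolar cluster of 19 KO-labelled and 18 WT-labelled cells led by Stmn1, as much weight as clusters 13 and 26.

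The alveolar difference in Ccl3 lay mainly in cluster 13, marked by the alveolar macrophage genes Ear1 and Fabp1. There Ccl3 was at 322 KO-labelled and 148 WT-labelled CPM (log2 ratio 1.12, counting interval 1.00 to 1.25), Ccl4 at 75.1 and 32.4 CPM (1.21, counting interval 0.94 to 1.49), Ccl2 at 59.1 and 21.6 CPM (1.45, counting interval 1.13 to 1.77) and Ccl7 at 25.0 and 7.15 CPM (1.81, counting interval 1.27 to 2.36). These 4 of the 8 members with at least 20 UMIs were at least 2-fold higher, against 1.41% of all genes there, and none was 2-fold lower, against 1.57%. The median over the 8 was 0.92 on the log2 scale and -0.02 over all genes. Neutrophil markers summed to 771 and 254 CPM and interstitial macrophage markers to 2106 and 1586 CPM in cluster 13, and their part in these ratios was not tested. Cluster 26, an alveolar state led by Cfb (complement factor B) and marked by Cxcl9, went the other way for Ccl4, at 119 and 199 CPM (log2 ratio -0.73, counting interval -1.10 to -0.38), for Ccl2, at 34.3 and 97.5 CPM, for Ccl7, at 53.5 and 121 CPM, and for Ccl12, on 2 and 21 UMIs. Of these, Ccl2, Ccl7 and Ccl12, 3 of 8, were at least 2-fold lower, against 2.98% of genes, and 0 of 8 were 2-fold higher, against 1.93%. Few cells weighed on such values. Without the 5 highest cells of each library, Ccl7 of the whole alveolar class fell from 120 and 217 UMIs to 70 and 73. Its class log2 ratio moved from 0.13 to 0.93, and that of Ccl2 from 0.65 to 0.94. How far cluster 26 alone rests on such cells was not tested. Neutrophil markers in cluster 26 summed to 1946 and 1114 CPM and NK cell markers to 1.37 and 149 CPM.

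Of all classes, T cell cluster 29 had the highest levels of both genes. This cluster, marked by Cd8a, Ifng and Gzmb, the genes of a killer T cell, had Ccl4 at 4903 CPM in 140 KO-labelled and 5905 CPM in 248 WT-labelled cells (log2 ratio -0.27, counting interval -0.34 to -0.19) and Ccl3 at 716 and 1106 CPM (log2 ratio -0.63, counting interval -0.82 to -0.44). NK cells had Ccl4 at 2138 and 2726 CPM (log2 ratio -0.35, counting interval -0.43 to -0.27) and Ccl3 at 474 and 617 CPM (log2 ratio -0.38, counting interval -0.55 to -0.21). In T cell cluster 11, marked by Cd4 and the cytokine genes Tnfsf8 and Il17f, Ccl4 was at 616 and 1376 CPM (log2 ratio -1.16, counting interval -1.302 to -1.02), with 82.6% of the KO-labelled and 76.1% of the WT-labelled UMIs in 5 cells. Dendritic cells carried less than NK cells and T cell cluster 29, with Ccl4 at 742 and 1049 CPM in cDC2, 635 and 979 CPM in plasmacytoid dendritic cells and 469 and 660 CPM in cDC1, lower in the KO-labelled library in all 3. Classical monocytes had Ccl4 at 676 and 902 CPM (log2 ratio -0.42, counting interval -0.62 to -0.21), and nonclassical monocytes had 16 and 40 UMIs in all. In T cell cluster 29 Ccl4 was found in 96.3% of 27 KO-labelled and 90.9% of 55 WT-labelled thinned cells with Ccl3, against 48.2% and 51.3% of those without. In neutrophils the shares were 52.5% and 63.5% with Ccl3, against 16.8% and 23.2% without.

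Ccl5, which encodes RANTES, a product of NK cells and memory or effector T cells, was the most lymphoid member. Lymphocytes held 81.5% of its UMIs in the KO-labelled and 77.1% in the WT-labelled library. NK cells had 16289 CPM in the KO-labelled (interval 16067 to 16514) and 14741 CPM in the WT-labelled library (interval 14503 to 14983), with a log2 ratio of 0.14 (interval 0.11 to 0.17), and a Ccl5 UMI was found in 98.9% of 473 and 99.1% of 319 cells at median depths of 2376 and 2827 UMIs. Thinned shares were 98.3% and 98.1%, against 0.726% and 0.473% of thinned B cells and 1.60% and 1.34% of unthinned ones. As mean UMIs per NK cell the ratio was -0.075, so its direction depended on the scaling. T cell cluster 29 followed at 14000 and 12992 CPM, then CCR7 dendritic cells at 3244 and 3008 CPM and T cell cluster 21, a Cd8b1-positive cluster with Sidt1, at 1425 and 2014 CPM (log2 ratio -0.50, counting interval -0.59 to -0.41). NK cells held 58.6% of KO-labelled and 39.3% of WT-labelled Ccl5 UMIs and T cell cluster 29 held 16.9% and 28.0%, with 140 and 248 cells in that cluster.

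Among macrophages, monocytes and neutrophils Ccl5 was uneven, and it was sparse in neutrophils and classical monocytes. Neutrophils had 11.4 KO-labelled and 66.8 WT-labelled CPM, but 80.8% of the WT-labelled UMIs lay in 5 cells, and without the 5 highest cells of each library the values were 4.71 and 13.03 CPM, next to 4.80 and 3.65 CPM in B cells treated alike. Interstitial macrophages had Ccl5 at 534 and 606 CPM, with a UMI in 22.6% and 30.3% of cells, or 12.5% and 13.7% after thinning. In cluster 6 Ccl5 was at 363 KO-labelled and 1031 WT-labelled CPM (log2 ratio -1.51, counting interval -1.64 to -1.38), with 65.9% of the WT-labelled UMIs in 5 cells, and in cluster 9 it was at 681 and 472 CPM (log2 ratio 0.53, counting interval 0.44 to 0.62). NK cell markers summed to 44.3 and 33.2 CPM over 10 genes in cluster 6. Classical monocytes had 9 and 6 Ccl5 UMIs in all.

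Ccl6 was the most abundant member and lay in myeloid cells. Alveolar macrophages had 4294 CPM in the KO-labelled (interval 4231 to 4357) and 3912 CPM in the WT-labelled library (interval 3869 to 3955), with a UMI in 98.7% and 99.2% of cells at median depths of 6532.5 and 7652.5 UMIs. The log2 ratio of 0.13 (interval 0.11 to 0.16) was -0.15 as mean UMIs per cell. Neutrophils had 1927 and 1819 CPM (log2 ratio 0.08, counting interval 0.05 to 0.12), or -0.08 with the clusters weighted alike, and a UMI in 83.4% and 85.8% of cells. B cells had a Ccl6 UMI in 1.60% and 2.61%. With thinned cells the shares were 88.6% and 90.4% of alveolar macrophages, 72.5% and 74.4% of neutrophils and 0.635% and 0.878% of B cells, so Ccl6 stood far above the B cell share in both classes. Interstitial macrophages had 1682 and 1856 CPM, carried by cluster 9 at 2850 and 2303 CPM, against 331 and 428 CPM in cluster 6. Ccl6 thus marked the interstitial state in which Ccl8 and Ccl12 were lowest. Classical monocytes had 948 and 795 CPM and nonclassical monocytes 467 and 452 CPM. Alveolar macrophages held 31.8% of KO-labelled and 53.6% of WT-labelled Ccl6 UMIs, with 636 and 1032 cells, and NK cells had 7.95 and 10.1 CPM, as low as B cells at 8.05 and 10.2 CPM.

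Ccl9, like Ccl6, was found in macrophages and monocytes, but it was low in neutrophils and differed from Ccl6 in which macrophages had most. Interstitial macrophages had 701 CPM in the KO-labelled and 421 CPM in the WT-labelled library (log2 ratio 0.73, counting interval 0.66 to 0.81), classical monocytes 519 and 422 CPM, cDC2 460 and 675 CPM (log2 ratio -0.55, counting interval -0.65 to -0.46) and alveolar macrophages 361 and 334 CPM. By state the interstitial difference lay in cluster 9, at 530 and 294 CPM (log2 ratio 0.85, counting interval 0.74 to 0.96), more than in cluster 6, at 899 and 827 CPM (log2 ratio 0.12, counting interval 0.02 to 0.23). Ccl9 was thus higher in cluster 6 than in cluster 9, by 1.70-fold in the KO-labelled and 2.81-fold in the WT-labelled library, while the same folds of Ccl6 were 0.116 and 0.186. Neutrophils had Ccl9 at 10.7 and 10.4 CPM, with a UMI in 1.72% and 2.02% of cells, while 83.4% and 85.8% of them had Ccl6. Classical monocytes had Ccl9 in 82.5% and 83.6% of cells and B cells in 0.444% and 0.335%. After thinning the Ccl9 shares were 38.5% and 41.7% of classical monocytes, 0.830% and 1.15% of neutrophils and 0.0907% and 0.203% of B cells, so the neighbouring genes split neutrophils from monocytes.

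The 250 bases before the start of Ccl6 (chr11:83593088-83593337, minus strand) and of Ccl9 (chr11:83578637-83578886, minus strand), printed 5′ to 3′ on the gene's strand, are shown for this contrast between neighbours. Capitals mark letter matches of the same 6 motifs.
Ccl6: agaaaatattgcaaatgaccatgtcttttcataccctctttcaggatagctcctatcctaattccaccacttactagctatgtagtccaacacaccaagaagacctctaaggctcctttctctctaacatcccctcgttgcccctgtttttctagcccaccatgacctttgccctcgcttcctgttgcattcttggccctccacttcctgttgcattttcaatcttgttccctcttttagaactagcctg
Ccl9: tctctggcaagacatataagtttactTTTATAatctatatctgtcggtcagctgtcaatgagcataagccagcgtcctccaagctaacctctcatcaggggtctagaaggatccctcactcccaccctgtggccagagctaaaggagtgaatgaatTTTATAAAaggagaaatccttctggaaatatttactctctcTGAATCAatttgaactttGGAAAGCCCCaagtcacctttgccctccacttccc
The Ccl6 window holds none of the 6 motifs. The Ccl9 window holds an NF-kB match on the reverse strand, GGAAAGCCCC, at bases 35 to 26 before the start, found in 1.41% of promoters, and an AP-1 match, TGAATCA, at 53 to 47, found in 6.75%. It also holds TATAAA at 92 to 87, which overlaps a reverse-strand match at 94 to 89, and a further reverse-strand match at 224 to 219. The matches are a description of the window, and a missing match says nothing on the factor.

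The count of members past 2-fold, read against all genes of the class, differed from class to class. In interstitial macrophages 0 of 9 were at least 2-fold higher in the KO-labelled library, against 1.64% of genes, and 0 of 9 were 2-fold lower, against 2.41%, yet the members' median log2 ratio was 0.62, next to -0.03 for all genes. The members' median of 0.62 pools clusters 6 and 9, present in unequal parts, within which the medians were 0.03 and 0.55. In alveolar macrophages 0 of 9 were 2-fold higher, against 1.36%, and 0 of 9 lower, against 1.55%. In neutrophils 2 of 9 were 2-fold lower, Ccl3 and Ccl5, against 3.83%, and 0 of 9 higher, against 1.57%. In classical monocytes 1 of the 6 members with 20 UMIs, Ccl7, was 2-fold higher, against 6.55%, and 0 of 6 lower, against 2.94%. In the mixed cluster 2 of 8, Ccl2 and Ccl12, were higher, against 3.05%, and 0 of 8 lower, against 3.81%. Its Ccl12 rested on 83 and 5 UMIs, and on 37 and 0 without the 5 highest cells of each library. The WT-labelled library had 61 classical monocytes and 191 cells of the mixed cluster. NK cells had 0 of 5 higher, against 1.74%, and 0 of 5 lower, against 1.57%, and T cell cluster 29 had 0 of 3 in each direction, against 2.18% higher and 3.24% lower.

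In T cell clusters 11 and 21, nonclassical monocytes, cDC2 and CCR7 dendritic cells the 2-fold differences all ran towards lower KO-labelled levels. T cell cluster 11 had 2 of 3 lower, Ccl3 and Ccl4, against 1.8%, and 0 of 3 higher, against 1.88%. Leaving out the 5 highest cells of each library left 5 and 44 Ccl3 UMIs and 93 and 385 Ccl4 UMIs in T cell cluster 11. T cell cluster 21 had 3 of 5 lower, Ccl3, Ccl6 and Ccl9, against 3.52%, and 0 of 5 higher, against 1.15%. Without the 5 highest cells of each library these 3 genes kept 0, 4 and 0 KO-labelled and 13, 23 and 2 WT-labelled UMIs in T cell cluster 21. Nonclassical monocytes had 2 of 4 lower, Ccl3 and Ccl4, against 2.37%, and 0 of 4 higher, against 4.21%. Treated alike, they kept 3 and 13 Ccl3 UMIs and 5 and 14 Ccl4 UMIs. In cDC2 2 of 9, Ccl7 and Ccl8, were lower, against 2.16%, and 0 of 9 higher, against 2.64%. Without the 5 highest cells of each library, cDC2 kept 100 and 152 Ccl7 UMIs, with a log2 ratio of -0.77, no longer 2-fold. Of Ccl8, 2 and 27 UMIs remained there. CCR7 dendritic cells had 5 of 7 lower, against 5.99%, and 0 of 7 higher, against 1.7%, and 84.8% of their WT-labelled Ccl2 UMIs lay in 5 cells. Among these 5 members, Ccl9 had a log2 ratio of -0.71 without the 5 highest cells of each library, on 17 and 35 UMIs. In interstitial cluster 6 1 of 9, Ccl5, was lower, against 1.74%, and 0 of 9 higher, against 2.06%, with a median log2 ratio of 0.03 over the members and 0.01 over all genes. In cluster 9 0 of 9 were lower, against 3.17%, and 0 of 9 higher, against 0.966%, with medians of 0.55 over the members and -0.05 over all genes.

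In the remaining classes 0 to 2 members passed 2-fold in a direction. In cDC1 2 of 7, Ccl5 and Ccl7, were lower, against 1.81%, and 0 of 7 higher, against 2.08%. B cells had 2 of 6 higher, Ccl2 and Ccl5, against 1.19%, and 0 of 6 lower, against 1.29%, on 19 and 9 UMIs of Ccl2 and 40 and 20 of Ccl5. Plasmacytoid dendritic cells had 1 of 5 higher, Ccl5, with 60 KO-labelled and 0 WT-labelled UMIs, against 2.52%, and 0 of 5 lower, against 3.18%. Regulatory T cells had 1 of 2 higher, Ccl4, against 2.84%, and 0 of 2 lower, against 2.52%, and gamma-delta T cells had 1 of 1 higher, Ccl4, against 2.84%, and 0 of 1 lower, against 4.29%. T cell cluster 10 had Ccl6 higher, 1 of 2, against 1.74%, and Ccl5 lower, 1 of 2, against 2.02%. Plasma cells had Ccl7 higher, 1 of 7, against 4.26%, and Ccl3 lower, 1 of 7, against 3.43%. Group 2 innate lymphoid cells had 0 of 1 higher, against 6.44%, and 0 of 1 lower, against 2.89%. Several of these calls rested on few cells. Without the 5 highest cells of each library, regulatory T cells kept 0 KO-labelled and 3 WT-labelled Ccl4 UMIs. Gamma-delta T cells kept 0 and 0 of Ccl4, and plasmacytoid dendritic cells 0 and 0 of Ccl5. In cDC1 5 and 14 of Ccl5 and 2 and 0 of Ccl7 remained. Plasma cells kept 4 and 0 of Ccl7 and 22 and 51 of Ccl3. B cells kept 12 and 4 of Ccl2 and 13 and 15 of Ccl5. T cell cluster 10 kept 4 and 2 of Ccl6 and 0 and 1 of Ccl5.

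**Figure D4:**
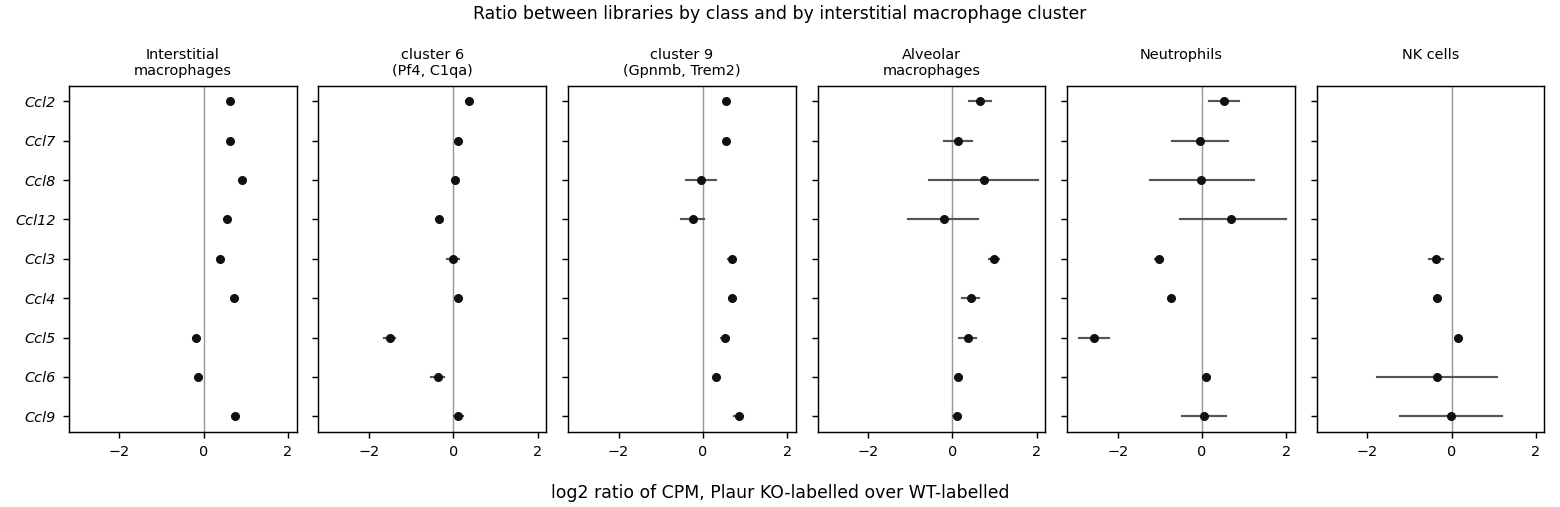
Log2 ratio of CPM, Plaur KO-labelled over WT-labelled, of members with at least 20 UMIs over both libraries, with 95% intervals for counting error, in interstitial macrophages, their clusters 6 and 9, alveolar macrophages, neutrophils and NK cells; the grey line marks equal levels. Ccl8 and Ccl12 lie right of the line in the class, while in clusters 6 and 9 their intervals include the line or lie left of it, and Ccl3 and Ccl4 lie left of it in neutrophils and right of it in interstitial and alveolar macrophages.

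The receptors that read these ligands lay on other cells than the main sources, with exceptions. Ccr2, the receptor for Ccl2, Ccl7 and Ccl12, was at 1722 CPM in KO-labelled and 2040 CPM in WT-labelled classical monocytes (log2 ratio -0.24, counting interval -0.38 to -0.11), at 917 and 748 CPM in regulatory T cells, at 837 and 974 CPM in group 2 innate lymphoid cells and at 252 and 136 CPM in interstitial macrophages (log2 ratio 0.89, counting interval 0.76 to 1.02). Ccr1, the receptor for Ccl3, Ccl5, Ccl6 and Ccl9, was highest in neutrophils, at 1639 and 1836 CPM (log2 ratio -0.16, counting interval -0.20 to -0.13), which carried Ccl6 as well. Ccr8, read by mouse Ccl8, reached 130 and 80.8 CPM in group 2 innate lymphoid cells, on 33 and 18 UMIs. Ccrl2, which binds the attractant chemerin without signalling, was at 247 and 401 CPM in neutrophils (log2 ratio -0.70, counting interval -0.79 to -0.61). Of 13 receptor genes listed, 4 had at least 100 UMIs in interstitial and in alveolar macrophages, 2 in neutrophils and 3 in classical monocytes, and 0 of them was 2-fold apart in any of these classes. The shares of all genes past 2-fold in these classes are those given above for the members. In plasma cells 1 of 3, Ccr2, was 2-fold higher, at 215 and 93.0 CPM (log2 ratio 1.21, counting interval 0.92 to 1.51), against 4.26% of genes. The CD11b antibody in plasma cells had means of 112 KO-labelled and 98.8 WT-labelled UMIs per cell, with medians of 7 and 7. Whether myeloid cells share some of these barcodes was not tested. The atypical receptor genes Ackr1 and Ackr2 had at most 6 UMIs in a class of either library.

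Across the 57 cluster-by-library sums of at least 50 cells, the 3 genes with the most similar pattern to each member were ranked. Pearson's r of log2(CPM + 1) over these sums is a description, since sums share libraries and cell types. For Ccl7 they were C3ar1 (r = 0.94), C1qc and C1qa, for Ccl8 Mmp13 (r = 0.89), Ccl12 and Ccl7, and for Ccl12 Ccl8 (r = 0.86), Ccl7 and C3ar1. Ccl2 was closest to Gm17268 (r = 0.93), Trem2 and Fam20c. Ccl3 and Ccl4 were closest to each other (r = 0.82), followed by Gsap and Xdh for Ccl3 and by Soat2 and Ier3 for Ccl4. The closest genes for Ccl5 were Gzma (r = 0.79), which encodes granzyme A, Klrc1 and Klrc2. For Ccl6 they were Tlr2 (r = 0.97), Creg1 and Mcemp1, and for Ccl9 Nupr1 (r = 0.88), Fcgr1 and Parvb. Ccl9 lay closer to Ccl2 (r = 0.77) than to Ccl6 (r = 0.62). These correlations use the same counts as the levels by class, so they restate those levels and give no separate support.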

How the data were processed

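The files the authors deposited hold raw UMI counts, by barcode, for genes and antibodies, after their cell calling. Libraries were 10x 3′ v3.1 preparations of cells stained with TotalSeq-A reagents (about 16000 cells loaded), per the labels' protocols. The authors ran Cell Ranger 7.1.0 and 7.0.0 on mm10, per the submitters' processing notes. Each library's genotype came from the library name in its labels. No cell annotation was used. The members and the lists were chosen with earlier results of these data known.

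Barcodes under 200 genes or above 10% mitochondrial UMIs were dropped (61 KO-labelled and 80 WT-labelled), then those that Scrublet called doublets (457 and 260, expected share 8%). Both libraries were clustered together in scanpy 1.11.5 without integration (3000 variable genes without Ccl genes, Plaur, sex-linked, mitochondrial, ribosomal and receptor segment genes, 30 principal components, 15 neighbours, Leiden resolution 1). Names came from 24 marker sets: a marker had to be seen in 20% or more of the cluster and at 2 times its level elsewhere, and 3 such markers made a name. The limits for a marker to count, the preference for the set with most markers among a cluster's 10 leading genes and the setting apart of a monocyte cluster with at least 5 neutrophil markers were chosen after seeing the data. T cells are given by cluster. Classes differ from the study's own if it used other names, and rebuilt names can move cells between classes.

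For each class and library the UMIs were summed and scaled to CPM of that sum (exact Poisson intervals). Ratios have exact conditional binomial intervals and shares exact Clopper-Pearson intervals, at 95%, for counting error only. PCR duplicates were collapsed by UMI, but crowding of UMIs in few cells and the spread between mice are not covered. In bulk sums fewer expressing cells and less RNA per cell cannot be told apart. A class needed 50 cells in each library, a member's ratio 20 UMIs over both and a receptor 100. All 9 members are named, with the 3 genes of highest Pearson correlation with each among 9341 genes of at least 500 UMIs. Scripts ran in Python 3.11.15 with SciPy 1.17.1, NumPy 2.4.6, scikit-learn 1.9.0, pandas 2.3.3 and matplotlib 3.10.9. The alternative scalings came from edgeR 4.0.16 and DESeq2 1.42.0 under R 4.3.3. The code for these intervals was checked on simulated data. The values of 1 listed receptor gene are not reported here.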

Additional observations from a re-analysis of the deposited data

Results flagged for a closer look

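2 pairs of classes differed in direction between libraries, and neither difference was tested, because there is 1 library per genotype. The log2 ratio of Ccl3, KO-labelled over WT-labelled, was 0.98 in alveolar macrophages and -1.01 in neutrophils, 1.99 apart. For Ccl4 it was 0.71 in interstitial macrophages and -0.73 in neutrophils, 1.44 apart.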

How the results depend on the processing

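No paired analysis was possible because each genotype has 1 library and the labels carry no replicate number. Over 10 leading log2 ratios (KO-labelled over WT-labelled), 135 of 138 values under alternatives kept their direction and 108 stayed within the interval. The exceptions in direction were Ccl12 in interstitial macrophages with each cluster weighted alike (-0.34), and, as mean UMIs per cell, Ccl6 in alveolar macrophages (-0.15) and Ccl5 in NK cells (-0.075). Of 28 other ratios, 339 of 380 values kept their direction.

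In interstitial macrophages Ccl2 and Ccl7 were each at 0.56 with doublet calls kept. As mean UMIs per cell, which carries the depth of the libraries, Ccl2 was at 0.28, Ccl7 at 0.27, Ccl8 at 0.56 and Ccl12 at 0.19. With each cluster weighted alike Ccl2 was at 0.44, Ccl7 at 0.25 and Ccl8 at 0.033. With each library clustered alone Ccl7 was at 0.66 and Ccl12 at 0.60, and with cells thinned to 1000 UMIs Ccl8 was at 0.76 and Ccl12 at 0.31. In alveolar macrophages Ccl3 was at 0.85 with doublet calls kept, 0.69 as mean UMIs per cell and 0.48 with clusters weighted alike. Ccl6 there was at 0.10 with clusters weighted alike, 0.073 thinned and 0.18 at most 5% mitochondrial UMIs. In neutrophils Ccl3 was at -0.73 with clusters weighted alike, -1.11 with each library clustered alone and -0.90 with TMM factors. Ccl4 there was at -0.33 with clusters weighted alike, -0.80 as mean UMIs per cell, -0.79 thinned, -0.62 with TMM factors and -0.67 with DESeq2 size factors. The cause of these moves was not tested, apart from the weighting, whose construction sets the clusters' unequal cell numbers aside.

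Chosen after seeing the data were leaving out the barcodes found in both libraries and counting the mixed cluster with the monocytes. At resolution 0.5 classical monocytes and the mixed cluster were 1 class, and clustering each library alone gave no value for classical monocytes. The 61 WT-labelled cells limit the classical monocyte values, and shallow cells, at medians of 1729 KO-labelled and 1744.5 WT-labelled UMIs, limit the shares of neutrophils.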
